A study of Mus musculus with 6 samples.

Results

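The comparison of postnatal day 14 (P14) with postnatal day 3 (P3) was described here across 3 auditory brainstem nuclei, for functional classes of genes other than the largest myelin rises and for genes that changed by nearly the same amount in every nucleus. All 6 arrays of the series entered it, 3 of each age, and 12958 of 18193 measured genes lay above the filter on low values and were tested. The mice were male C57BL/6J of either age, with no treatment or altered gene named in the labels. Each array held RNA of 1 nucleus, which was the trapezoid body's medial nucleus (MNTB), the lateral superior olive (LSO) or the ventral part of the cochlear nucleus (VCN), pooled from 6 animals at P3 or from 3 at P14, dissected from fresh slices and amplified from 20 ng. The sources used here do not say whether 1 set of animals gave all 3 nuclei. With 1 array per nucleus and age, no standard error (SE) or p-value below measures variation between animals. Each rests on how far age differences varied between nuclei. The fit (limma) draws the spread of each gene toward that of genes of similar intensity. An SE is thus moderated and is not the gene's own spread over nuclei alone.

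These nuclei form the first stations of the pathway that computes where a sound comes from. Mice begin to hear airborne sound in the second postnatal week, so that P3 lies before and P14 just after that onset. In the interval the neurons acquire fast synapses and short action potentials, glia mature and axons become myelinated.

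Each pool was a piece of tissue with several cell types, and in bulk RNA fewer cells of a type and less RNA per cell cannot be told apart. As a check of the labels, the 19 neuronal marker genes had a summed level of 15.79 to 16.04 (log2) in the P3 pools and of 15.91 to 16.04 in the P14 pools, ranges that overlap. The summed level of 70 oligodendrocyte and myelin genes was 15.12 to 15.68 at P3 and 17.19 to 17.43 at P14, that of 17 endothelial and pericyte genes 12.91 to 13.13 and 13.76 to 13.88, and that of 15 microglial genes 12.28 to 12.77 and 12.95 to 13.21. The sum of 5 red blood cell genes was 9.80 to 9.82 at P3 and 10.88 to 11.08 at P14, and that of 19 astrocyte genes 15.20 to 15.39 and 15.53 to 15.74, while the sums of 18 ependymal genes overlapped between ages. The 19 genes of dividing cells went the other way, from 12.78 to 12.98 down to 12.08 to 12.42. For 16 meningeal and choroid plexus genes the sum was 11.02 to 11.40 at P3 and 11.37 to 13.28 at P14, highest in the VCN pool. A sum is weighted toward its brightest members and can hide opposite moves. In the test described below, 8 of 19 astrocyte genes were called higher and 3 lower, with a median difference of 0.18. Of 18 tested neuronal genes 3 were called higher and 4 lower, with a median of -0.09. Over all tested genes the shares were 23.4% higher and 17.7% lower. Of all markers in these lists, only the haemoglobin gene Hba-a1 and the ciliary gene Spag6 lay in the range of unspiked control probe sets on all 6 arrays. RNA quality also moved with age: the 3' probe set of Gapdh lay 1.21 to 1.41 log2 units above the 5' one in the P3 pools and 1.06 to 1.11 above it in the P14 pools. The part of these differences in the results was not tested.

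With limma, 5317 genes (41% of those tested) passed an adjusted p of 0.05 for age. Higher values at P14 were found for 3029 (23.4%) and lower values for 2288 (17.7%), and these shares are the background for the counts in each class below. The median difference over all tested genes was 0.03 log2 units. Rises made up 57.0% of the calls, but 44.7% when each array was centred on the median of its tested genes, a scaling that moved the ages by 0.093 log2 units against each other. A difference of at least 1 log2 unit was reached by 850 genes that rose (6.56%) and 513 that fell (3.96%), and 297 genes (2.29%) passed the stricter test against a change of 1 log2 unit, 227 of them higher and 70 lower. Without the MNTB array of P3 or that of P14 the number of genes past the test fell to 3142 or 3176, and the stricter count to 147 or 142. Without the LSO array of P3 or P14 the stricter count was 172 or 170. With nucleus in the model, leaving out either array of a nucleus takes that nucleus out of the age difference. Here and below, such a fit therefore compares the ages over the remaining nuclei. It cannot tell the P3 array of a nucleus from its P14 array.

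The first question was which genes changed by the same amount everywhere. A gene was called uniform where it passed the test, changed by at least 1 log2 unit on average, lay above the control range on all 6 arrays, and had differences in VCN, LSO and MNTB that lay within 0.25 log2 units of each other. The rule found 100 rises (0.772% of tested genes) and 69 falls (0.532%). They were 12.4% of all genes that passed with at least 1 log2 unit, 11.8% of those rises and 13.5% of those falls. The median range over nuclei was 0.60 among such large changes and 0.35 among all tested genes. Because the rule itself asks for evenness and the test divides by a moderated spread over nuclei, the small p-values of uniform genes follow from how they were chosen.

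In the oligodendrocyte and myelin list 62 of 67 tested genes rose by at least 1 log2 unit and 5 were uniform, a share of the large rises near the 11.8% of all large rises. These were Evi2a, Arsg, Gjc3, Cdc42ep2 and Sox10, named after their values were seen. Ermn, a cytoskeletal protein of oligodendrocytes and the largest rise of the list, was at 7.19, 4.58 and 4.31 at P3, the last in the control range, and at 11.39, 11.60 and 11.75 at P14, so that the nuclei differed before and met after. Gjc3, a connexin of oligodendrocytes, was at 6.86, 7.01 and 7.10 at P3 and at 9.37, 9.59 and 9.65 at P14 in VCN, LSO and MNTB.

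**Figure D1:**
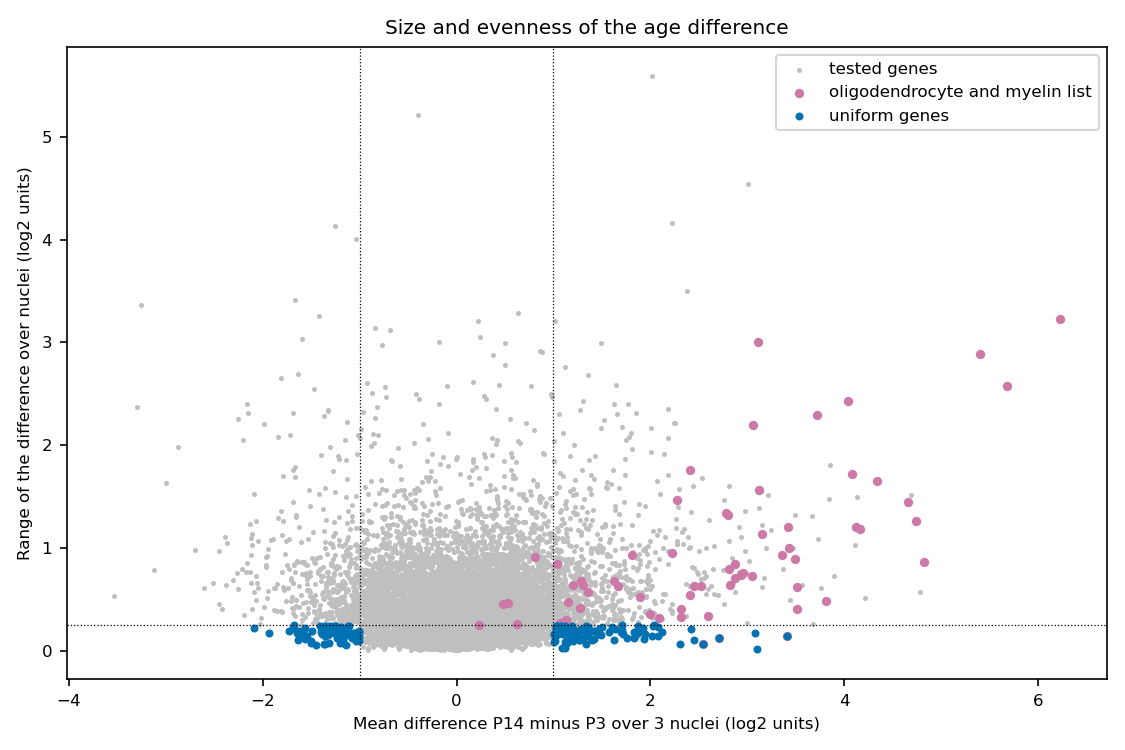
Each point is 1 of 12958 tested genes, with its mean difference P14 minus P3 over 3 nuclei (log2 units) on the horizontal axis and the range of that difference over the nuclei (log2 units) on the vertical axis. Dotted lines mark a change of 1 log2 unit and a range of 0.25, below which the 169 uniform genes (blue) lie, while most genes of the oligodendrocyte and myelin list (pink) lie above that range.

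The largest uniform rise was that of Evi2a, a membrane protein gene that lies within an intron of Nf1, at 3.40 ± 0.11 log2 units (SE, 3 nuclei, adjusted p = 0.000243). Its other probe set gave -0.64, and the median of both was 1.38. The most even of the 12 largest uniform rises was that of Adssl1, the muscle-type adenylosuccinate synthase of purine nucleotide synthesis. Adssl1 was at 6.15, 5.93 and 6.23 at P3 and at 9.26, 9.04 and 9.32 at P14 in VCN, LSO and MNTB. The ages did not overlap, and the difference of 3.11, 3.10 and 3.09 log2 units in the 3 nuclei amounted to a rise of 8.59-fold (3.10 ± 0.11, adjusted p = 0.000243).

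Acot11, which encodes an acyl-CoA thioesterase, was at 6.21, 6.16 and 5.71 at P3 and at 9.38, 9.16 and 8.79 at P14. MNTB was the lowest nucleus at both ages while the rise itself was even, at 3.08 ± 0.11, although a second probe set gave 0.27 and the median of both 1.67. Another thioesterase of that name, the cytosolic Acot1, fell as evenly, from 9.80, 9.73 and 9.72 to 8.32, 8.06 and 8.13. Arsg, a lysosomal sulfatase, rose by 2.71 and Rhog, a small GTPase, by 2.45. Rhog stood at 6.14, 6.15 and 6.39 at P3 against 8.59, 8.65 and 8.79 at P14, so that no array of one age came within 2 log2 units of the other. The orphan receptor gene Gprc5b rose by 2.41, Frmd8, which stabilises the shedding protease complex of iRhom and ADAM17, by 2.30, and the G protein subunit gene Gng11 by 2.12. Apln, whose product apelin is a peptide ligand with actions on vessels, went from 7.23, 6.93 and 6.94 to 9.29, 9.09 and 8.96 (2.08 ± 0.11, adjusted p = 0.000378). Sytl2, a Rab27 effector, rose by 2.08 and the palmitoyltransferase gene Zdhhc9 by 2.04, the latter with a second probe set at -0.22 and a median of 0.91.

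Among the uniform falls Stac, an adaptor protein of voltage-gated calcium channels, was the largest. Stac was at 6.93, 8.25 and 6.97 at P3 and at 4.75, 6.10 and 5.01 at P14 in VCN, LSO and MNTB. LSO thus kept its higher level while all nuclei fell by 1.96 to 2.18 log2 units. Coch, the gene of cochlin, an extracellular protein abundant in the inner ear, went from 8.14, 8.61 and 7.71 to 6.32, 6.64 and 5.71, a fall of 3.81-fold (-1.93 ± 0.12, adjusted p = 0.000408). Dpysl3, a growth cone protein of the collapsin response family, was at 12.36, 12.14 and 12.14 at P3 and at 10.55, 10.51 and 10.57 at P14. Il17rd, an inhibitor of FGF receptor signalling, fell by 1.69 on the log2 scale and Plppr3, a membrane protein of growing axons, by 1.65. The ferric reductase gene Cybrd1 fell by 1.63, the ubiquitin ligase gene Marchf9 by 1.62, and the zinc finger factor gene Sall3 by 1.62 with its lowest level in VCN at both ages. Samd14 at -1.73, Bex4 at -1.57 and Klhl23 at -1.56 complete the 12 largest.

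**Figure D2:**
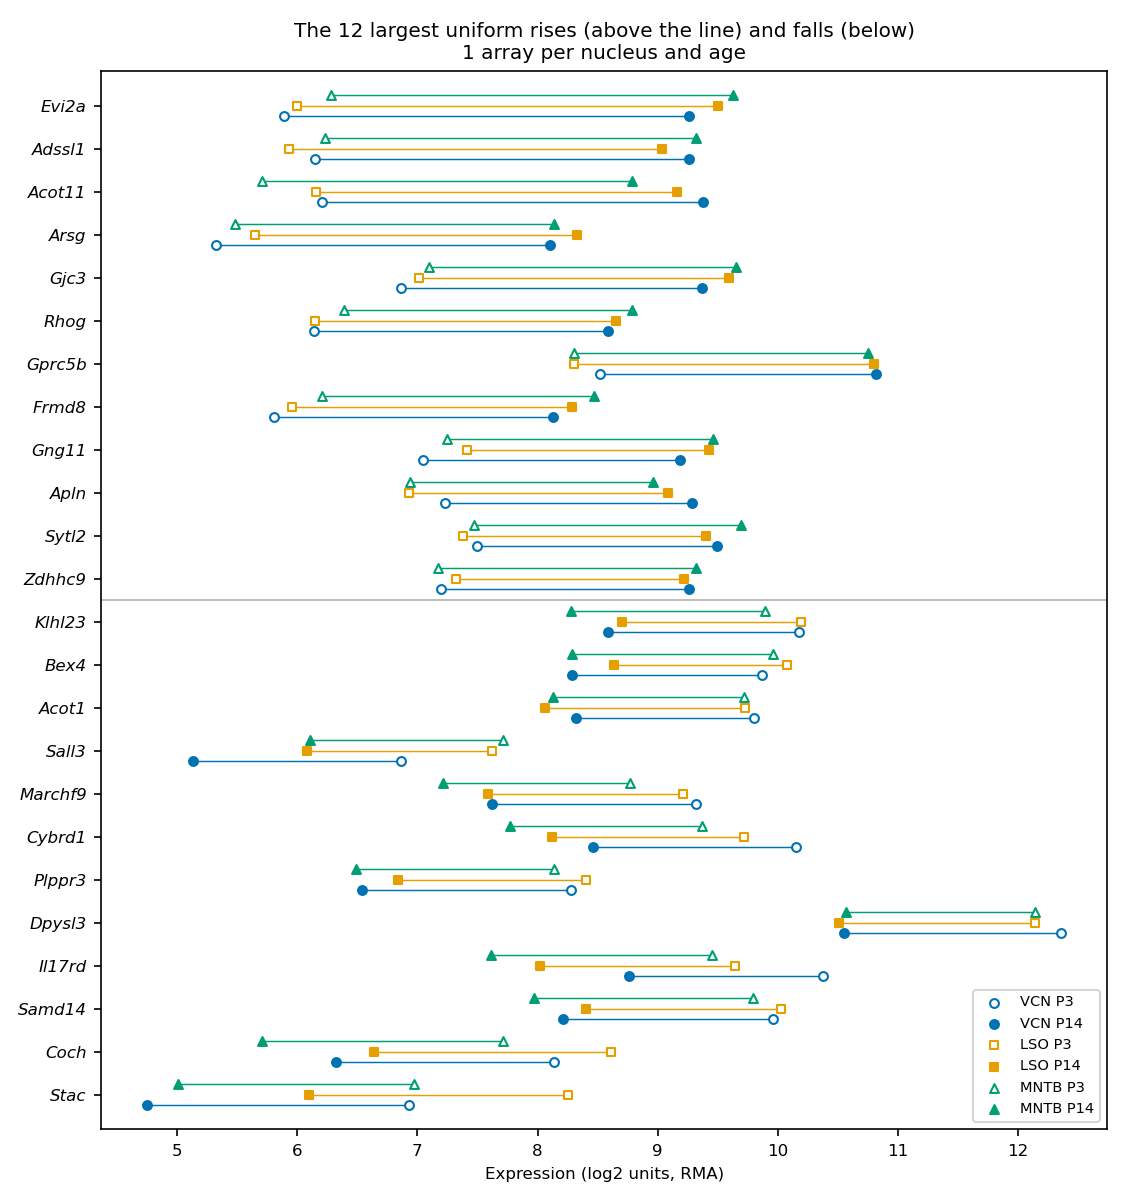
Expression (log2 units, RMA) of the 12 largest uniform rises and the 12 largest uniform falls, with 1 open marker per nucleus for P3 and 1 filled marker for P14, joined by a line. In every gene the 3 lines have nearly the same length, as the rule requires, while the starting level can differ between nuclei, as for Stac, which was highest in LSO at both ages.

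A few other uniform genes, of ion channels and RNA binding, were singled out after their values were seen and stand for no class. The RNA-binding genes Mbnl1 and Mbnl2, which drive postnatal splice forms, rose by 1.39 and 1.92, although the probe sets of Mbnl1 ran from 0.13 to 1.39 and those of Mbnl2 from -0.19 to 2.53. Scn2b, a sodium channel beta subunit, went from 8.96, 9.36 and 9.09 to 10.52, 11.02 and 10.73, and Kcnab3, a potassium channel beta subunit, rose by 1.88. Cacna1b, the pore of the N-type calcium channel that serves release at young synapses, went from 11.18, 11.03 and 10.94 to 9.77, 9.75 and 9.42, with probe sets from -1.41 to -0.53. Splicing factor genes of neurons were also among the falls, Nova2 at -1.05, with a second probe set at -0.31, and Celf2 at -1.18, with probe sets from -1.30 to 0.06, and so was Mir124-2hg, a host transcript of the neuronal microRNA miR-124, at -1.09. Genes at the edge of the rule were Dpysl3 and Zdhhc9, with a range over nuclei of 0.247 just inside it, and Qdpr and Snhg11, with 0.251 just outside. By size, Gnaz at -1.0008 lay just inside and Cep85 at 0.9999 just outside.

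Promoters of uniform genes are shown for the most even of the 12 largest rises and for the 2 largest falls, to let the letters be read beside the values. RefSeq sequence of the GRCm38.p6 build was matched by symbol for 79 of the 100 rises and 53 of the 69 falls. Each line gives the 150 bases before the start of the gene, read 5′ to 3′ on its own strand. Capitals mark GC boxes (GGGCGG on either strand), the binding letters of Sp1 type factors. The other motifs searched, on both strands, were the CCAAT box, the TATA box TATAAA and the E-box CACGTG. The E2F site, searched as TTTGGCGC or TTTCGCGC, the CHR element TTTGAA, the CRE TGACGTCA and the ERR element AAGGTCA complete the search. None of these occurred in the 3 stretches shown here.
Adssl1 (chr12:112619897-112620046, plus strand): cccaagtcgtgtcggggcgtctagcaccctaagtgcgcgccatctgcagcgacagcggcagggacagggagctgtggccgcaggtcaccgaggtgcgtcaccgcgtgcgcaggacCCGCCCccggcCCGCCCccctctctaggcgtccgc
Stac (chr9:111690349-111690498, minus strand): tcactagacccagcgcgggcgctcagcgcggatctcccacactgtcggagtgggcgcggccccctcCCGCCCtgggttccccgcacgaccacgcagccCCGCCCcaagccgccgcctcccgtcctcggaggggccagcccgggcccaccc
Coch (chr12:51593191-51593340, plus strand): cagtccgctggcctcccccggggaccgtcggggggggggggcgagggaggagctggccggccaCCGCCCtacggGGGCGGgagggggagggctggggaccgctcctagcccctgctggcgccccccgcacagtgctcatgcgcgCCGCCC
In the whole RefSeq window of 300 bases around the start, a GC box was found in 48 of 79 uniform rises (60.8%), 42 of 53 uniform falls (79.2%) and 64.0% of the tested genes that had a promoter, against 35.9% of all 27025 promoters. The median GC content was 61.7% for the rises, 67.0% for the falls and 61.0% for tested genes. An E-box was found in 3 of the rises (3.80%) and 6 of the falls (11.3%), against 9.94% of tested genes. A match describes the letters only.

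The second question was which functional classes moved beyond myelin. There were 43 functional lists, and with 9 marker lists they held 1732 measured genes, of which 1585 were tested and 8 stood in more than 1 list. A list is described by its counts and its median, beside the background shares above and the median of 0.03 over all tested genes. Of all 52 lists, 39 kept the sign of their median under every setting tried.

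**Figure D3:**
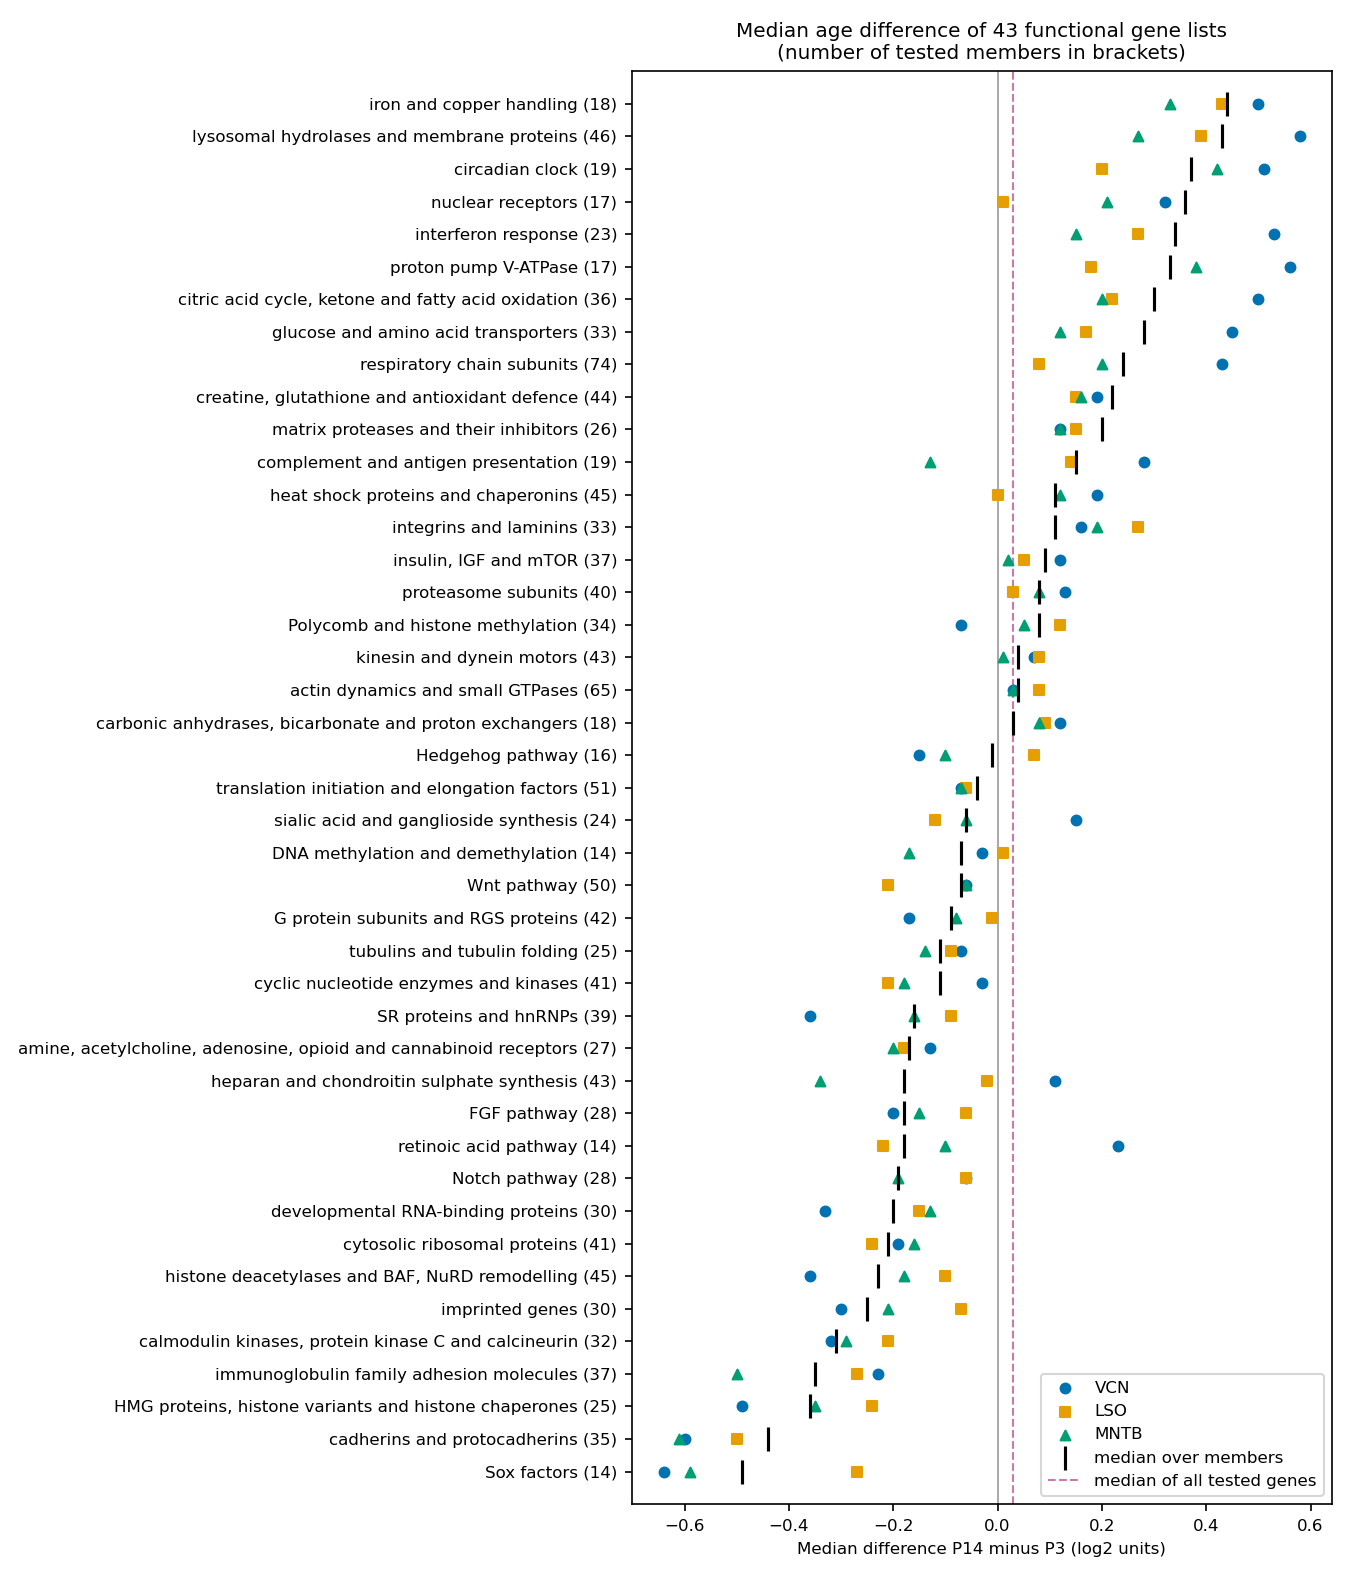
Median difference P14 minus P3 (log2 units) of 43 functional lists, with 1 coloured marker per nucleus and a black bar for the median of the members' mean differences. Iron and copper handling (0.44) and lysosomal genes (0.43) stand at the top and cadherins (-0.44) and Sox factors (-0.49) at the bottom, while the dashed line marks the median of all tested genes at 0.03.

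Most of the Sox factors that passed the test were lower at P14. Of 14 tested Sox factors, the HMG-box regulators of progenitor state and neuronal differentiation, 7 fell and 2 rose, with a median of -0.49. Sox11, which acts in newly born neurons, was at 11.61, 11.11 and 11.20 at P3 and at 9.0, 9.26 and 9.14 at P14 in VCN, LSO and MNTB. Its ages lay far apart, and the fall was 4.51-fold (-2.17 ± 0.15, adjusted p = 0.000489). Sox4 fell by 1.18 on the log2 scale and Sox1, a factor of neural progenitors, by 1.28, the latter by 0.56 by the probe set median. Sox12, from the same subgroup as Sox4 and Sox11, was the uniform member at -1.17, named after its value was seen. The rises were Sox18 of endothelial cells at 1.09 and Sox8 at 0.76. Between 6 and 7 of the falls were called without any 1 array.

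Many genes that package chromatin fell. In the list of HMG proteins, histone variants and histone chaperones 25 of 27 measured genes were tested, 15 fell and 1 rose, with a median of -0.36. Hmgb3 went from 11.42, 11.35 and 11.32 to 10.09, 10.31 and 10.31, without overlap, and Hmgb2, a DNA-bending protein abundant in dividing cells, fell by 1.38 on the log2 scale. Nasp, a histone chaperone, had a difference of -1.54 by its brightest probe set, but -0.09 (adjusted p = 0.584) by the probe set median of 5. Without 1 array 8 to 11 of the falls were called, with 8 where an MNTB array was left out, 9 without a VCN array and 10 without the LSO array of P3. The summed markers of dividing cells fell in the same arrays, and their part in these falls was not tested.

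Among histone deacetylases and the BAF and NuRD remodelling complexes 16 of 45 tested genes fell and 6 rose, with a median of -0.23. The BAF complex exchanges subunits as progenitors become neurons, and 3 of its neuronal or tissue-restricted subunits fell here. Smarcd3 was at 9.88, 9.97 and 9.79 at P3 and at 8.72, 8.87 and 8.63 at P14, a uniform fall of 2.21-fold (-1.15 ± 0.09, adjusted p = 0.000642). Dpf1 fell by 1.29 on the log2 scale and Actl6b by 1.10. The more widely expressed counterparts paired with them here did not pass the test. Smarcd1 was at -0.02 (95% interval -0.30 to 0.25), Phf10 at -0.11 (-0.35 to 0.12) and Actl6a at 0.18 (-0.11 to 0.47), although Actl6a was at -0.46 (adjusted p = 0.0461) by the probe set median. Smarcd2, another relative of Smarcd3, did pass and rose by 0.65 (adjusted p = 0.00305). The differences between the members of a pair were not tested. Bcl11a and Bcl11b, zinc finger subunits of BAF in neurons, fell by 1.70 and 1.81. Sirt2, a deacetylase known from oligodendrocytes, rose by 1.03. The count of falls went to 10 or 11 without an MNTB array, and that of rises to 3 without an MNTB or an LSO array.

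Polycomb and other histone methylation genes showed no common direction, with 7 rises and 7 falls of 34, near the background. Pcgf2, a Polycomb ring finger protein, fell uniformly from 9.78, 9.43 and 9.27 to 8.41, 8.19 and 7.81. Its difference was -1.35, or -0.97 by the probe set median. The methyltransferase genes Setd7 and Kmt5a rose by 1.39 and 1.38, and Ehmt2, which methylates histone H3 at lysine 9, fell by 0.90. Without an MNTB array 4 rises and 3 falls of this list were called, and without an LSO array 4 rises. In the DNA methylation list 3 of 14 genes rose and 2 fell, of which 1 without an MNTB array. The maintenance methyltransferase gene Dnmt1 fell by 0.79, and Gadd45a, a stress and demethylation factor, rose by 2.05 from 6.48, 6.17 and 6.22 to 9.10, 8.06 and 7.88. Dnmt3a was at 0.02 (95% interval -0.18 to 0.22), and Dnmt3b lay below the filter and was not tested.

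Most clock and nuclear receptor genes passed the test. Of 19 clock genes 10 rose and 3 fell, with a median of 0.37, and 9 rises were called without any 1 array. Dbp, a clock output factor, rose from 8.29, 8.08 and 8.12 to 9.86, 9.88 and 9.62 (1.62 ± 0.11, adjusted p = 0.000456), with no overlap of ages. Npas2, a partner of Bmal1, rose by 1.23, or by 0.67 by the probe set median, and Csnk1e, the kinase of Per proteins, fell by 0.73. Of the 3 falls 1 was called without an MNTB array. The sources used here give no hour of dissection, and with 1 pool per nucleus and age its part cannot be told apart from age. Of 17 nuclear receptor genes 7 rose and 5 fell. Nr2f1 and Nr2f2, orphan receptors of developing neurons, fell by 1.19 and 0.98, and the mineralocorticoid receptor gene Nr3c2 rose by 0.99. With an MNTB array left out 3 of these rises and 2 of the falls were called, and without an LSO array 4 and 3. The median of the list, 0.36, was -0.18 with the filter at the 60th percentile, with 4 rises.

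Imprinted genes, expressed from 1 parental copy and many of them growth regulators, more often fell than rose, with 14 falls and 5 rises among 30 and a median of -0.25. Nnat, a proteolipid of developing neurons, was at 13.31, 13.10 and 13.21 at P3 and at 11.48, 12 and 11.59 at P14 (-1.52 ± 0.14, adjusted p = 0.000855). Magel2 fell by 1.68. Igf2, a growth factor of vessels and meninges at this age, rose from 9.33, 9.36 and 9.34 to 10.76, 10.53 and 10.02, the most in VCN and the least in MNTB. The meningeal markers Col1a1 and Col3a1 rose by 2.88 and 3.16. The summed level of 16 meningeal and choroid plexus genes was 11.02 to 11.40 at P3 and 11.37 to 13.28 at P14. Before the log2 the sums at P14 were 9932, 3328 and 2656 in VCN, LSO and MNTB, against 2697, 2074 and 2194 at P3. The part of meningeal and choroid plexus tissue in the rise of Igf2 was not tested. The count of imprinted falls was 9 without the MNTB array of P3.

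Many genes of RNA processing and of the ribosome fell by small steps. Of 39 SR proteins and hnRNPs, the general splicing factors, 14 fell and only Pcbp1 rose, at 0.42, with a median of -0.16. Srrm4, which promotes neuronal microexons, fell by 0.83 and Srsf6 by 0.80, or 0.49 by the probe set median. When an MNTB array was left out 9 of the falls and no rise were called. Among 30 developmental RNA-binding proteins 11 fell and 5 rose. Igf2bp3, an oncofetal mRNA-binding protein, went from 9.19, 9.44 and 9.64 to 8.0, 7.95 and 7.62, so that the order of nuclei turned. Khdrbs2 fell uniformly by 1.26, and Ybx1, an abundant mRNA-packaging protein, by 0.77. Once an MNTB array was dropped, 3 of these rises and 5 or 6 of the falls were called, and by probe set medians 6 falls were.

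The cytosolic ribosomal protein list had 79 entries, of which 45 were measured and 41 tested, and the other entries were not assessed. Of the tested genes 21 fell and none rose, while 20 did not pass. The median was -0.21, with medians of -0.19, -0.24 and -0.16 in VCN, LSO and MNTB. The changes were small and even, with a median range over nuclei of 0.13 against 0.35 for all genes. Rps19 was at 11, 11.25 and 11.30 at P3 and at 10.52, 10.63 and 10.65 at P14 (-0.58 ± 0.08, adjusted p = 0.00256). Rps20 had a uniform difference of -1.20 by the probe set used, but -0.23 where probe sets whose names end in _x_at were kept. The count of falls was 32 with centred arrays, 10 without the intensity trend, 11 and 12 without the LSO array of P3 and of P14, and 7 and 8 without the corresponding MNTB arrays. Probe sets of this family can also detect pseudogene transcripts, so single members are uncertain.

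Most translation initiation and elongation factors did not pass the test, with 9 falls and 3 rises among 51 and a median of -0.04. The largest change was that of Eif5a2, the tissue-specific form of a factor that carries hypusine. Eif5a2 rose from 8.96, 9.04 and 9.39 to 10.45, 10.27 and 10.49 (1.27 ± 0.11, adjusted p = 0.000755), while its common form Eif5a was at -0.12 (95% interval -0.26 to 0.01). Eef2k, the kinase that halts elongation, fell by 0.62, or by 0.41 by the probe set median. Without 1 array 2 to 5 falls were called, without the intensity trend 5, and with centred arrays 16. For the elongation factor pair, Eef1a1 was at -0.19, a call lost in 7 settings, with an adjusted p of up to 0.156, and Eef1a2, its neuronal form, at 0.18 (-0.10 to 0.47).

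**Figure D4:**
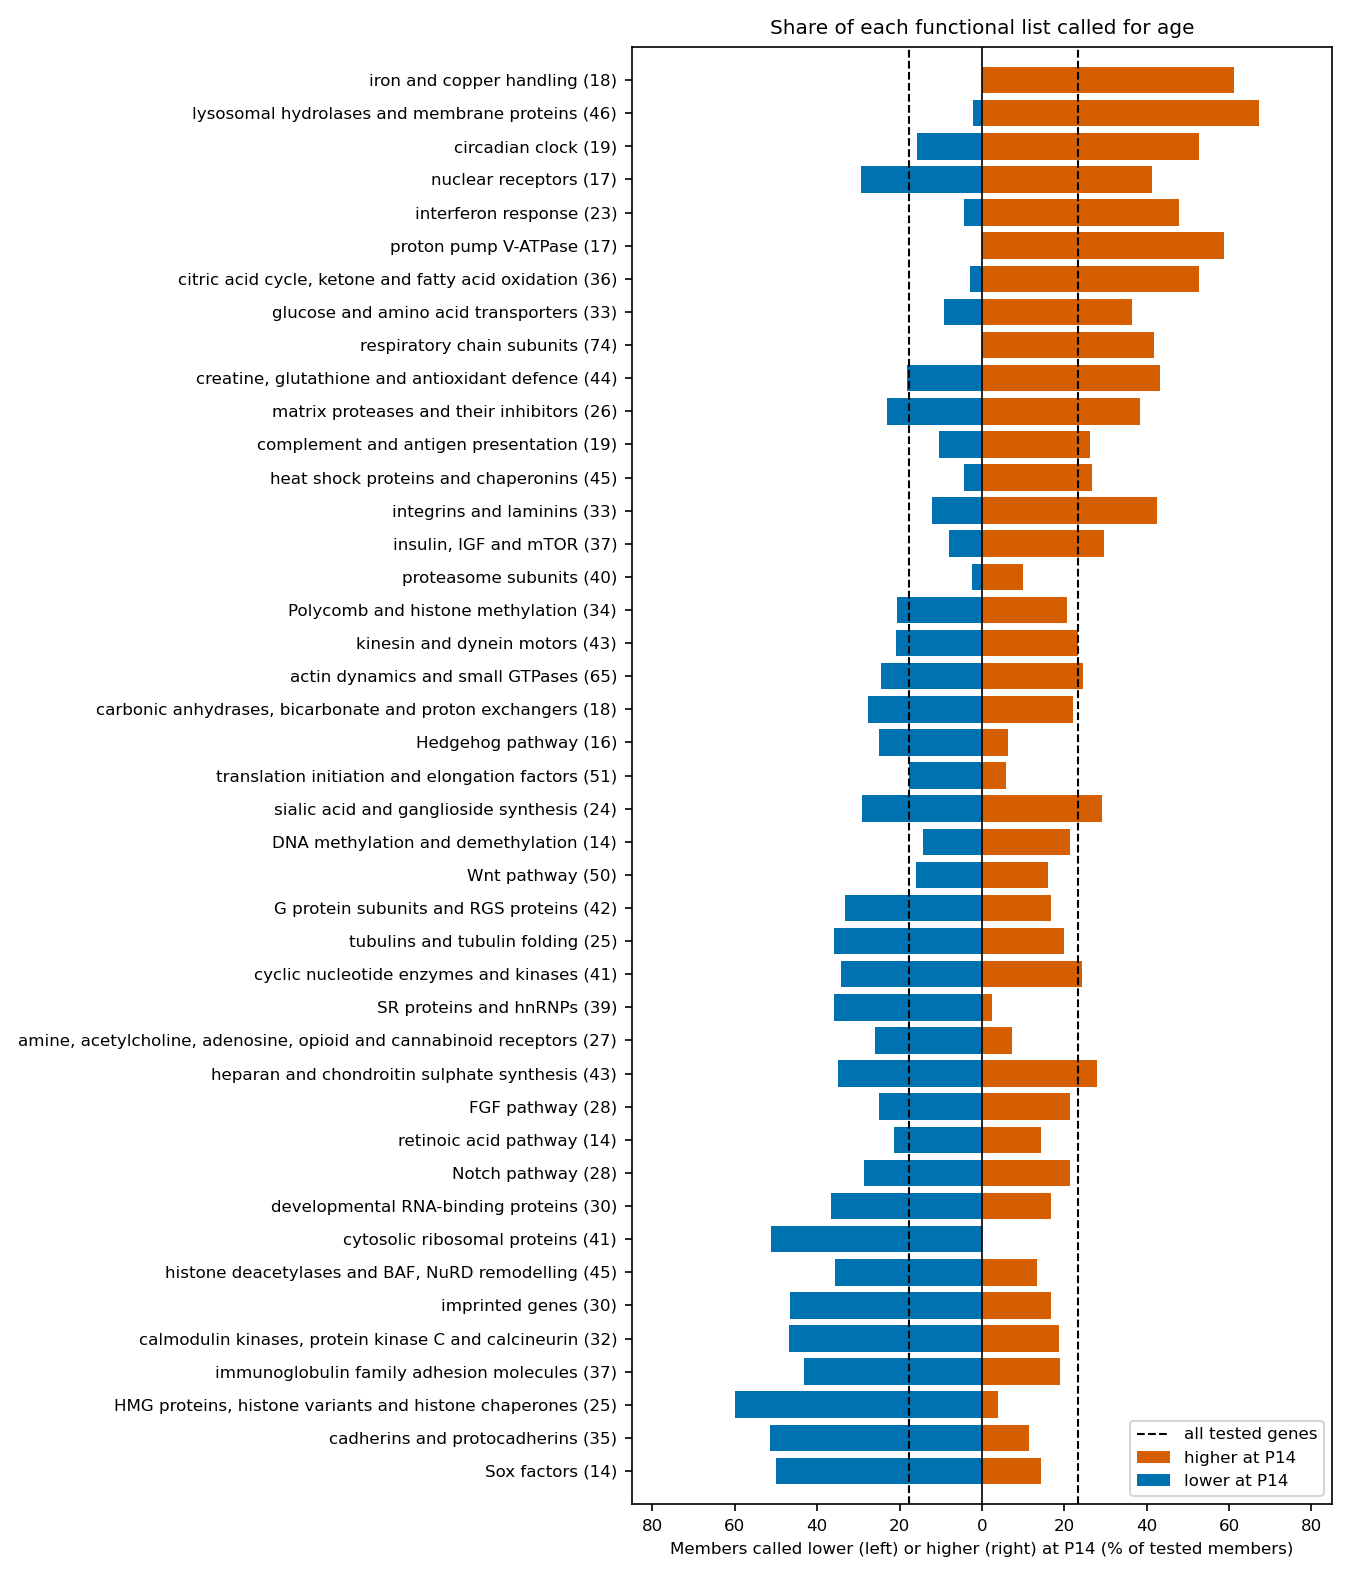
Share of the tested members of each functional list that were called lower (left, blue) or higher (right, orange) at P14, in percent, with dashed lines at the shares of all tested genes (17.7% lower, 23.4% higher). Lysosomal genes, iron handling and the proton pump exceed the line on the right, ribosomal proteins and HMG proteins the line on the left, and proteasome subunits lie inside both lines.

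Most lysosomal genes rose. The list of hydrolases and membrane proteins, which also held the regulator gene Tfeb, had 46 tested genes. Of these 31 rose and 1 fell, namely Ctsc at -0.47 (adjusted p = 0.13 with the LSO array of P3 left out). The median was 0.43, with medians of 0.58, 0.39 and 0.27 in VCN, LSO and MNTB. Tfeb, the master transcription factor of lysosome biogenesis, went from 6.97, 6.80 and 7.34 to 8.42, 8.59 and 8.72 (1.54 ± 0.13, adjusted p = 0.000782). Lipa, the lysosomal acid lipase, rose uniformly from 8.36, 8.37 and 8.55 to 9.76, 9.79 and 10.11, a rise of 2.75-fold. Arsb, another sulfatase, rose by 1.28. The count of rises was 17 without the MNTB array of P3, 18 without that of P14 or an LSO array, and 21 with centred arrays. The proton pump that acidifies lysosomes and synaptic vesicles followed, with 10 rises and no fall among 17 genes and a median of 0.33. Its subunit gene Atp6v0a2 rose by 1.12 and Atp6v0e by 0.77. Only 2 of the 10 were called without an MNTB array. Summed microglial and oligodendrocyte markers rose in the same arrays, and their part was not tested.

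Most proteasome subunits did not pass the test. Of 40 subunit genes 4 rose and 1 fell, below the background in both directions, with a median of 0.08 that turned to -0.01 with centred arrays. The fall was that of Psme1, an activator subunit induced by interferon, from 10.74, 10.94 and 10.82 to 9.34, 9.72 and 9.37 (-1.36 ± 0.09, adjusted p = 0.000456), a uniform change. The 4 rises, of which Psma5 at 0.35 was the largest, numbered 2 without an LSO array and 0 without an MNTB array, without the intensity trend or with centred arrays. Of 45 heat shock proteins and chaperonins 12 rose and 2 fell, the falls being 0 without an LSO array and 6 with centred arrays. Hspa2 rose by 1.51 from 9.54, 8.84 and 8.83 to 10.52, 10.46 and 10.76, and the co-chaperone gene Bag3 by 1.45. Dnaja4 was uniform at 1.24, or 0.77 by the probe set median.

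Many genes of oxidative metabolism rose by small steps, with the largest medians in VCN, a difference between nuclei that was not tested. In the respiratory chain list 74 of 76 measured genes were tested, 31 rose and none fell, with a median of 0.24 and medians of 0.43, 0.08 and 0.20 in VCN, LSO and MNTB. Cox7a1, the heart and muscle form of a cytochrome oxidase subunit, was at 5.36, 6.27 and 6.75 at P3 and at 7.45, 7.5 and 7.48 at P14. The nuclei differed at P3 and met at P14, which gave a rise of 1.35 ± 0.26 (adjusted p = 0.00928) that was largest in VCN. Its liver form Cox7a2 was at 0.25, and that call was lost in 8 settings, with an adjusted p of 0.229 without the MNTB array of P3. Ndufs5 of complex I was at 0.57, a call lost without an MNTB array (adjusted p = 0.0882 and 0.0885). The count moved with the arrays and the model entered: it was 8 without the intensity trend of the variance, 19 with no filter on low values, 15 without a VCN array, 26 and 33 without the LSO array of P3 and of P14, 1 without an MNTB array, and 15 with centred arrays.

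In the list of citric acid cycle, ketone and fatty acid oxidation 19 of 36 genes rose and 1 fell, with a median of 0.30. Cpt2, the inner carnitine palmitoyltransferase that admits fatty acids to oxidation, rose uniformly from 6.88, 6.86 and 6.73 to 8.18, 8.18 and 8.17 (1.36 ± 0.11, adjusted p = 0.000754). Hadhb, a subunit of the trifunctional protein, rose by 1.05, and Acaa2, a thiolase of the same pathway, fell by 0.77. The count of rises was 13 without an LSO array and 8 without an MNTB array.

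The antioxidant and creatine list moved in both directions, with 19 rises and 8 falls among 44. Gss, glutathione synthetase, rose uniformly from 7.03, 7.24 and 7.49 to 8.90, 9.23 and 9.44 (1.94 ± 0.11, adjusted p = 0.000378), and the antioxidant regulator gene Nfe2l2 by 1.48, or 0.67 by the probe set median. Gstm1, a glutathione transferase, fell from 11.06, 11.44 and 11.49 to 9.32, 9.30 and 8.98, a fall of 4.39-fold that was largest in MNTB. The creatine transporter gene Slc6a8 was uniform at 1.02, named after its value was seen. Falls numbered 5 without an LSO array and 4 or 5 without an MNTB array. Iron and copper handling had 11 rises and no fall among 18 genes, with a median of 0.44. The ferric reductase gene Cybrd1, a uniform fall at -1.63, was not a member of this list, so the absence of falls holds for its members only. The metalloreductase gene Steap2 rose by 1.75, from 7.09, 6.94 and 7.12 to 8.79, 8.41 and 9.19, the mitochondrial iron importer gene Slc25a37 by 1.06 and the transferrin receptor gene Tfrc by 0.90. Without an LSO array 7 rises were called, and without the MNTB array of P14 also 7. Summed markers of oligodendrocytes and of red blood cells, both rich in iron, rose without overlap in the same arrays, and their part was not tested.

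Carbonic anhydrases and exchangers were called in both directions, and transporters of nutrients more often rose than fell. Of 18 carbonic anhydrases and exchangers 4 rose and 5 fell, with a median of 0.03 that was -0.06 with centred arrays and -0.26 by probe set medians. Car4, a membrane-bound carbonic anhydrase of brain capillaries, rose from 8.25, 8.38 and 8.29 to 10.09, 10.11 and 9.82 (1.70 ± 0.10, adjusted p = 0.000416), and the anion exchanger gene Slc4a2 rose uniformly by 1.43. Falls were 3 without an LSO or an MNTB array. Among 33 glucose and amino acid transporters 12 rose and 3 fell, with a median of 0.28. The insulin-responsive glucose transporter gene Slc2a4 rose by 1.2, and Slc1a4, a neutral amino acid carrier, fell by 0.96 from 12.87, 12.85 and 12.88 to 11.72, 12.09 and 11.91.

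Signalling pathways of early development held calls in both directions, below the background for Wnt genes and for Hedgehog rises and near it for most of the others. Of 50 Wnt genes 8 rose and 8 fell, of 28 FGF genes 6 and 7, of 28 Notch genes 6 and 8, and of 16 Hedgehog genes 1 and 4, so that each list held both. Some members changed by over 1 log2 unit. The Notch target gene Hes5 fell from 8.04, 8.97 and 8.82 to 6.49, 7.06 and 6.89 (-1.80 ± 0.13, adjusted p = 0.000537), and the Notch ligand gene Dll1 by 1.28. Heyl, a related target in vessel walls, rose uniformly by 1.21, with probe sets from 0.45 to 1.21. Hhip, an inhibitor that binds Hedgehog ligands, rose from 7.5, 7.74 and 6.74 to 10.64, 9.28 and 9.36, the most in VCN, and Gpr161, a ciliary receptor that represses the pathway, fell by 1.52. Among the Wnt genes the secreted antagonist gene Sfrp2 fell uniformly by 1.31, Wnt3 rose by 1.74 and the Wnt carrier gene Wls by 1.14. Fgf1 rose from 7.5, 8.28 and 8.01 to 10.27, 10 and 10.36, a rise of 4.85-fold, whereas Fgf13, an intracellular regulator of sodium channels and microtubules, fell by 1.29 and Fgfbp3 by 1.73. Without an MNTB array 2 Notch rises and 3 falls, 4 or 5 Wnt rises and 4 FGF falls were called, and without an LSO array 3 Notch rises, 4 Wnt rises and 1 Hedgehog fall. Hedgehog falls were 2 without an MNTB array, and Wnt falls 5 by probe set medians. With centred arrays the Notch and Wnt falls numbered 12 and 13 and the FGF falls 12.

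Of 14 retinoic acid genes 2 rose and 3 fell, with 5 falls called without a VCN array, 2 without an LSO or an MNTB array, and 1 rise without an LSO array. Aldh1a1, a retinal dehydrogenase that makes retinoic acid, rose from 6.82, 7.39 and 7.43 to 10.98, 10.98 and 10.97 (3.76 ± 0.15, adjusted p = 0.000246), reaching the same level in all nuclei. Crabp1, the cytosolic binding protein, fell from 9.49, 9.61 and 9.71 to 4.63, 7.08 and 7.23, the most in VCN. Cyp26b1, which breaks retinoic acid down, fell by 1.03, a call that was lost without the nucleus term (adjusted p = 0.129). With 37 tested members the insulin, IGF and mTOR list had 11 rises and 3 falls. Deptor, an inhibitor of mTOR, rose by 1.61 and Foxo1 by 1.25, or 0.64 by the probe set median. Igf1 was at -0.70 (95% interval -1.23 to -0.18), a call that was lost in 7 settings, with an adjusted p of 0.31 without the nucleus term. No fall of this list was called without an MNTB array, and 8 were with centred arrays.

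Many genes of intracellular signalling fell. Of 32 calmodulin kinase, protein kinase C and calcineurin genes 15 fell and 6 rose, with a median of -0.31. Camk4, a nuclear kinase of neurons, went from 11.56, 11.33 and 11.07 to 10.54, 10.03 and 9.70 (-1.23 ± 0.09, adjusted p = 0.000613), and Camkv, a kinase-like protein of spines, fell by 1.76. Camk2a, the adult forebrain form of the synaptic kinase, had a difference of -1.36 against -0.55 for Camk2b (adjusted p = 0.0844 without the MNTB array of P3), and -0.64 by the probe set median. The rises were 4 without a VCN or MNTB array and 3 without an LSO array. Cyclic nucleotide genes had 10 rises and 14 falls among 41. Pkia, the heat-stable inhibitor of protein kinase A, fell uniformly from 11.63, 11.59 and 11.46 to 10.13, 10.05 and 10, and the calmodulin-stimulated cyclase gene Adcy1 fell by 1.54, while the phosphodiesterase gene Pde8a rose by 1.69. With an MNTB array left out 5 of these rises were called. G protein subunits and RGS proteins had 7 rises and 14 falls among 42. Gng2 fell from 11.74, 11.61 and 11.41 to 9.34, 10.30 and 9.44 and Gng4 by 1.17, whereas Gng8 rose by 1.98 and Gng11 uniformly by 2.12. Falls were 7 without an MNTB array and rises 4 without an LSO array. Among 27 receptors for amines, acetylcholine, adenosine, opioids and cannabinoids 7 fell and 2 rose, the latter being the delta opioid receptor gene Oprd1 at 1.2 and the histamine receptor gene Hrh3 at 0.77. Only 3 of these falls were called without an LSO or an MNTB array, and 4 without the nucleus term.

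Motor and actin genes were called in both directions at shares near the background. Of 25 tubulin genes and folding factors 5 rose and 9 fell, with a median of -0.11. Tubb5 fell from 11.98, 12.23 and 11.89 to 11.25, 11.23 and 11.04 and Tubb4a, a form of myelinating and mature cells, rose from 11.77, 11.84 and 11.98 to 12.57, 12.63 and 12.67 (0.76 ± 0.06, adjusted p = 0.000588). Ttll7, a tubulin polyglutamylase of neurons, rose by 1.64. When an MNTB array was left out 3 rises and 5 or 6 falls were called. Of 43 kinesin and dynein genes 10 rose and 9 fell. Kif13b rose uniformly from 8.19, 8.26 and 8.39 to 9.67, 9.68 and 9.76, although its 4 probe sets ran from 0.18 to 1.42. Kif21b, which slows microtubule growth, fell uniformly from 10.08, 9.79 and 10.04 to 8.59, 8.35 and 8.60. The axonal motor Kif5a was at -0.02 (95% interval -0.17 to 0.13) and Kif5b at 0.58 (adjusted p = 0.0595 without the MNTB array of P3). The motor list had 4 rises and 4 falls without an MNTB array, and its median of 0.04 was -0.06 with centred arrays. Of 65 actin genes 16 rose and 16 fell. Rac3, a GTPase of developing neurons, fell from 8.30, 8.56 and 8.30 to 6.52, 7.09 and 6.77, and the kinase gene Pak3 by 1.08, while Rhou rose by 1.45 and Rhob uniformly by 1.12, the last named after its value was seen. Rises numbered 10 without an LSO or an MNTB array and falls 9 without an MNTB array and 10 without the intensity trend, and the median of 0.04 turned to -0.06 with centred arrays and to -0.01 with quantile normalization.

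Many adhesion genes fell. In the cadherin and protocadherin list 35 of 40 measured genes were tested, 18 fell and 4 rose, with a median of -0.44, and 15 to 22 falls were called without any 1 array. Cdhr1 went from 8.29, 9.07 and 7.52 to 6.15, 7.41 and 5.13 (-2.07 ± 0.17, adjusted p = 0.000693), and Cdh8, a type II cadherin of neurons, from 8.18, 8.12 and 7.53 to 5.89, 6.67 and 5.37. In both genes LSO was the highest nucleus at P14, as it was at P3 for Cdhr1 but not for Cdh8. Fat4, a giant cadherin of planar polarity, fell by 1.75. Of 37 immunoglobulin family members 16 fell and 7 rose, with a median of -0.35. Cxadr fell by 11.6-fold from 10.43, 10.41 and 10.53 to 6.90, 7.13 and 6.73 (-3.53 ± 0.13, adjusted p = 0.000243), L1cam, of growing axons, by 1.38, and Ncam1 by 1.09, or 0.52 by the median of 7 probe sets. The junction gene Jam3 rose by 2.03, or 1.28 by the probe set median, and Igsf8 uniformly by 1.14. Once an MNTB array was dropped, 10 of these falls were called, and without an LSO array 3 of the rises.

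Among matrix genes rises and falls were mixed. Of 33 integrins, laminins and their partners 14 rose and 4 fell, with 6 rises called without an LSO or an MNTB array and 1 or 2 falls without any 1 array. Itgb3 rose by 1.69, or by 1.05 by the probe set median, and Agrn, a heparan sulphate proteoglycan of synapses and vessels, fell from 10.99, 10.96 and 10.89 to 9.78, 10.07 and 9.91. Among 26 matrix proteases and inhibitors 10 rose and 6 fell, with a median of 0.20 that was -0.05 by probe set medians. Loxl1, a crosslinking enzyme of elastin, rose by 1.83 and Serpinf1 by 1.89 with its largest rise in VCN, and Mmp11 fell by 0.95. Without an MNTB array 6 rises and 4 falls were called. In the sialic acid and ganglioside list 7 of 24 genes rose and 7 fell. St8sia2, the polysialyltransferase of embryonic neural cell adhesion molecule, fell from 9.68, 8.50 and 8.28 to 6.48, 6.29 and 5.60 and St6galnac5, a ganglioside sialyltransferase, by 1.88, while St8sia5 rose by 1.23. By probe set medians 3 rises were called, and the median of the list turned from -0.06 to 0.11. Heparan and chondroitin sulphate enzymes had 12 rises and 15 falls among 43. Hs3st4, a heparan sulphate 3-O-sulfotransferase of neurons, fell from 8.62, 8.84 and 8.82 to 7.31, 7.07 and 7.15, and its relative Hs3st1 rose from 6.34, 6.65 and 5.91 to 7.89, 7.85 and 7.90. For this list 7 rises were called without a VCN array, 5 or 6 without an LSO array, 9 falls without the MNTB array of P3, and 7 rises with centred arrays.

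Interferon response genes had 11 rises and 1 fall among 23, with a median of 0.34. With centred arrays or quantile normalization 4 falls were called, and with the filter at the 60th percentile, where fewer genes were tested, 5 rises and 2 falls with a median of 0.02. The guanylate-binding protein gene Gbp3 rose by 1.63 and the antiviral membrane gene Ifitm3 by 1.19, both with the highest or a shared highest rise in VCN. Irf2, an interferon regulatory factor, rose uniformly from 6.19, 6.42 and 6.15 to 7.5, 7.56 and 7.38 (1.22 ± 0.12, adjusted p = 0.00107). Of 19 complement and antigen presentation genes 5 rose and 2 fell, near the background. Cd59a, which shields cells from complement, rose from 7.78, 8.06 and 7.46 to 9.49, 9.46 and 9.17. The count of complement rises was 2 without a VCN array, 1 without an LSO array and 7 without an MNTB array. By probe set medians 7 interferon rises were called. Summed microglial and endothelial markers rose in the same arrays, and their part was not tested.

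Outside the oligodendrocyte list the largest rise was that of the uncharacterised gene 2700046A07Rik, at 4.78, with 1 of its P3 values in the control range. Fam107a, an actin-associated protein of astrocytes, rose from 6.57, 4.66 and 5.15 to 11.16, 10.15 and 9.13, a rise of 25.8-fold, and Dio2, the deiodinase that makes active thyroid hormone in glia, from 7.5, 8.17 and 6.97 to 11.90, 11.63 and 11.46, a rise of 17.3-fold (4.11 ± 0.21, adjusted p = 0.000378). The potassium channel subunit gene Kcng4 rose by 4.22 with its MNTB value of 3.29 at P3 in the control range, and Pdlim2, Cpm, Apod and Slc45a3 rose by 4.13, 3.89, 3.85 and 3.85. Mgp, an inhibitor of calcification made by vessel cells, went from 6.03, 6.53 and 6.49 to 9.88, 10.13 and 10.08, and its range over nuclei of 0.26 missed the rule for uniform genes narrowly. Gm19500 and Mob3b rose by 3.72 and 3.67, the former with 2 P3 values in the control range. Summed oligodendrocyte markers rose in the same arrays, and their part in these rises outside the list was not tested. Among the falls AW551984 was at -3.26, with values of 9.62, 10.44 and 9.91 at P3 and of 4.29, 8.47 and 7.44 at P14, so that its fall in VCN ended in the control range. Rapgefl1 and Pak6 fell by 3.12 and 3.00. Ablim3 went from 11.90, 12 and 11.88 to 10.04, 9.07 and 8.04, Celf5 fell by 2.61, Plppr1 by 2.51 and Stum by 2.45, and Dcx, a microtubule protein of migrating neurons, fell from 11.82, 11.33 and 11.30 to 9.18, 8.97 and 9.06. Rasgrp2 was at -2.45, but at -1.0 where _x_at probe sets were kept and at -1.42 by the probe set median.

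**Figure D5:**
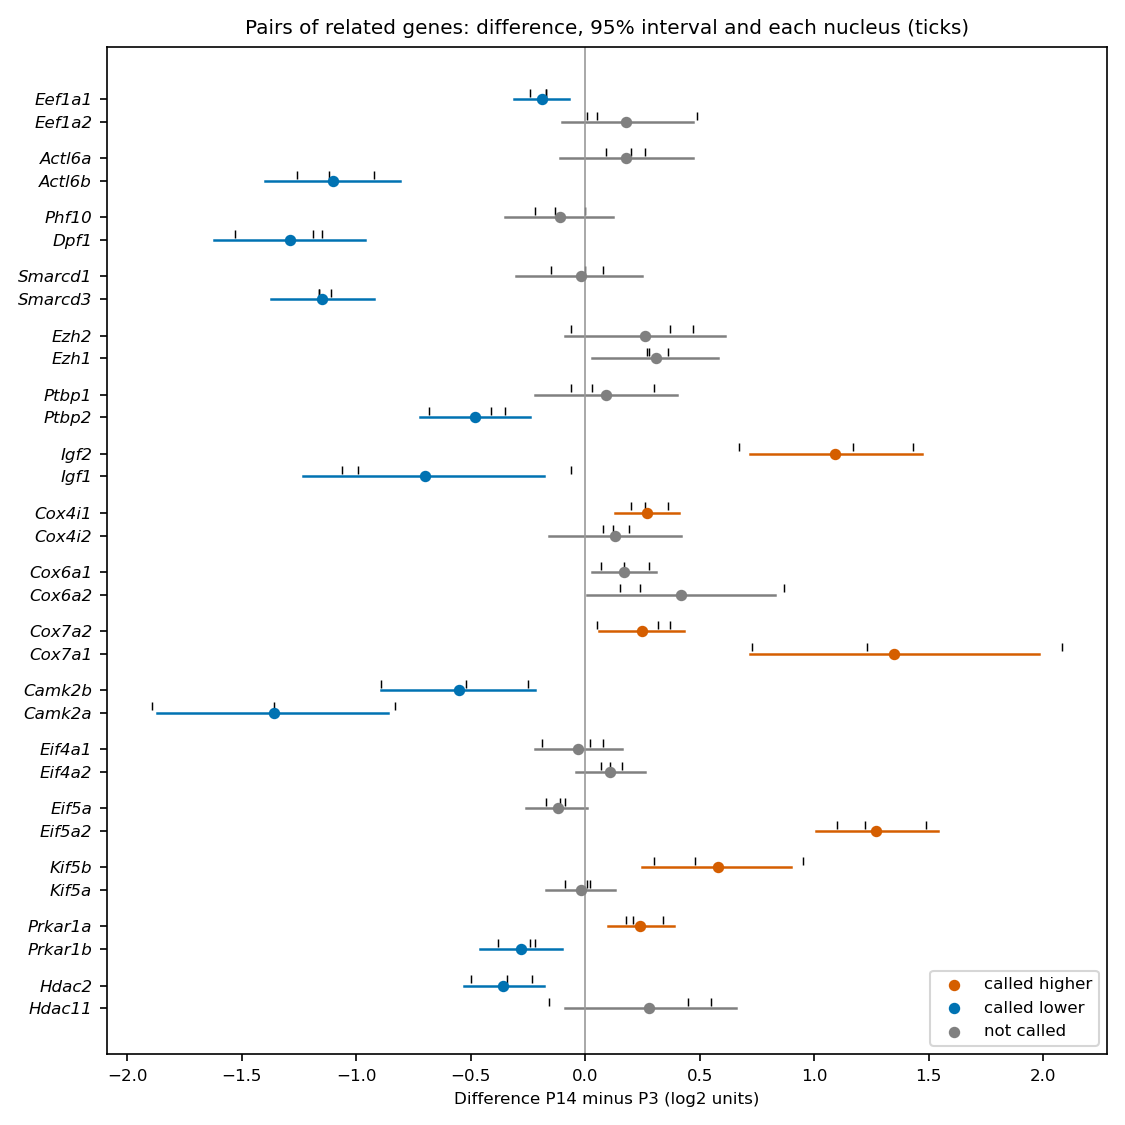
Difference P14 minus P3 (log2 units) of both members of 16 pairs of related genes, with a 95% interval from limma and 1 tick for each nucleus. The BAF subunits Actl6b, Dpf1 and Smarcd3 lie at -1.10 to -1.29, with no nucleus near 0. The intervals of the members paired with them, Actl6a, Phf10 and Smarcd1, include 0.

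Genes of dividing cells gave a second occasion to look at promoters, since the promoters of cell cycle genes carry known motifs. Of 18 tested genes 16 fell and none rose, with a median of -0.72 and medians of -0.84, -0.63 and -0.58 in VCN, LSO and MNTB. The replication helicase gene Mcm6 was at 8.35, 8.52 and 8.63 at P3 and at 7.20, 7.43 and 7.22 at P14, Mki67, the Ki-67 antigen, at 10.77, 10.43 and 10.72 and at 9.16, 9.29 and 9.85, and Top2a, a topoisomerase of mitosis, at 8.43, 8.35 and 8.51 and at 6.94, 7.19 and 7.88. At P14 the MNTB pool was the highest for Mki67 and Top2a, and at P3 for Top2a but not for Mki67. The 3 probe sets of Top2a ran from -1.10 to -0.04 and those of Mcm6 from -1.22 to -0.24. Between 9 and 12 falls were called without 1 array, 9 without an MNTB array and 10 without the VCN array of P3. Ccna2, the largest fall of the list at -1.24, had no promoter at hand. Top2a, the next fall in size after Mcm6 and Mki67, was added outside the rule for named genes. The promoters of Mcm6, Mki67 and Top2a are shown for the motifs that the list shares. Each gives the 150 bases before the start, and capitals mark the E2F sites, CHR elements, CCAAT boxes and GC boxes spelled out above, on either strand, of which some overlap in Mcm6.
Mcm6 (chr1:128359706-128359855, minus strand): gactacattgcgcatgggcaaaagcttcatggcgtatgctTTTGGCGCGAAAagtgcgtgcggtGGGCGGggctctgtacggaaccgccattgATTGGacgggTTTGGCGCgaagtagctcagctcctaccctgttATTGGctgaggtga
Mki67 (chr7:135716380-135716529, minus strand): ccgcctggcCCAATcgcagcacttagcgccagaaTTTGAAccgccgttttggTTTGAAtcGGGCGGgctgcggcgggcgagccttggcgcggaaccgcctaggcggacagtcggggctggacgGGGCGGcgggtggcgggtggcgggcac
Top2a (chr11:99024190-99024339, minus strand): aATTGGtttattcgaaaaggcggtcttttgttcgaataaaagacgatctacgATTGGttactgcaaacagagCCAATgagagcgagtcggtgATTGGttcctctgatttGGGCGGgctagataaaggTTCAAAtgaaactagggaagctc
Over the 300-base windows of the 16 genes in the list that had a promoter, a CCAAT box was found in 14 (87.5%), a CHR element in 10 (62.5%) and an E2F site in 3 (18.8%). Among all promoters these shares were 37.9%, 18.1% and 0.833%, and among tested genes 38.1%, 11.2% and 1.52%. Genes of all classes that fell by at least 1 log2 unit had them at 38.8%, 13.1% and 1.80%, close to the tested genes. No TATA box and no CRE was found in the windows of the list, which says only that these letters are not there.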

How the data were processed

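Total RNA of dissected nuclei was amplified (WT-Ovation Pico, Nugen) and put on Affymetrix arrays, 1 per nucleus and age, per the labels' protocols. The authors deposited log2 expression values made by RMA, per the submitters' processing notes. The sources used here name no version of RMA, no scan date and no batch. Of 45101 probe sets, 34945 named 1 gene, of which 34741 matched a RefSeq gene by gene ID.

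Probe sets ending in _x_at were set aside where a gene had others, and the probe set of highest mean stood for each gene. Genes with a mean of at least 5.57 (the 40th percentile) entered a linear model of age plus nucleus (limma 3.58.1, R 4.3.3, intensity trend), with Benjamini-Hochberg adjustment over 12958 genes at 0.05. The residual degrees of freedom were 2 and the prior added 3.95. The numbers that pair the arrays are the nuclei themselves, so the nucleus term is the block of the fit. In simulated data for this comparison, with 200 of 12958 genes changed, 95% of changes of 1 log2 unit and 100% of 2 log2 units were found, with 14 false calls among 209. Array medians were 6.27 to 6.31, and the number of arrays limits the precision. No column of the tables was left unmapped.

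Named genes are the 12 largest uniform rises and falls, the 12 largest rises and falls outside the oligodendrocyte list, up to 3 called rises and 3 falls per list, both members of each gene pair and the members of small counts, and the text says where a gene was chosen otherwise. Lists and members were chosen with earlier results of these data known. Alternatives were other filters, probe set choices, variance models and scalings, a floor, the fit without the nucleus term, other limits of uniformity, and leaving out each array.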

Additional observations from a re-analysis of the deposited data

Results flagged for a closer look

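In 9 lists the medians of the nuclei had opposite signs, and the difference between nuclei was not tested. The gap between the highest and lowest median was 0.32 log2 units for astrocyte markers, 0.47 for ependymal cilia, 0.18 for DNA methylation, 0.19 for Polycomb and histone methylation, 0.22 for the Hedgehog pathway, 0.45 for the retinoic acid pathway, 0.27 for sialic acid and ganglioside synthesis, 0.45 for heparan and chondroitin sulphate synthesis, and 0.41 for complement and antigen presentation.

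Of the genes named as members of pairs, 7 that did not pass the test for age had nuclei with opposite signs, again untested. The range over nuclei was 0.33 for Dnmt3a, 0.27 for Eif4a1, 0.53 for Ezh2, 0.71 for Hdac11, 0.11 for Kif5a, 0.36 for Ptbp1 and 0.23 for Smarcd1.

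Outside the genes reported, 2537 probe sets that name no gene here lay above the same filter, and 1112 of them (43.8%) passed the test for age in their own fit, against 41% of the named genes.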

How the results depend on the processing

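Of 327 named genes in the fit, 248 kept their call under each setting in which they had a value and 79 did not (271 had one at the 60th percentile filter and 311 by probe set medians), and 1 changed direction with a call, Pgr, at -0.51 in the fit as reported and at 0.49 by probe set medians (adjusted p = 0.0316). Leaving out 1 array gave 3142 to 4710 genes past the test, 1879 to 2574 higher, 1263 to 2138 lower, and 142 to 313 past the test against 1 log2 unit, with the lowest counts without an MNTB array. In such a fit the other array of the same nucleus no longer bears on the age difference. Over the nuclei that then remain, uniform rises numbered 253 to 348 and uniform falls 170 to 235, since 2 nuclei meet the limit more easily than 3. A limit of 0.15 log2 units left 36 rises and 22 falls, and one of 0.40 gave 242 and 166. The uniform genes that met the rule again were 98 of 160 by probe set medians, 130 of 169 with centred arrays and 143 with quantile normalization. The fit with no nucleus term, that is with no replicate block for the pairing by nucleus, gave 5074 genes, of which 4739 were called in both fits. Of all calls, centred arrays made 44.7% rises and quantile normalization 50.8%. Signal over background limits genes near the control range, which reached 4.42.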
